A study of Mus musculus with 2 samples.

Results

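The genes of glycolysis, the pentose phosphate pathway and the citrate cycle were examined in splenic regulatory T (Treg) cells with and without the microRNA miR-125a. The members were 42 named genes, 20 of glycolysis with its glucose and lactate transporters, 5 of the pentose phosphate pathway and 17 of the citrate cycle with the entry of pyruvate into it. A gene was measured where a probe set of the array named it and no other gene in the platform annotation. That held for 39 of the 42 members, of 18194 genes measured in all. Gpi1 and Eno1 of glycolysis and G6pdx of the pentose phosphate pathway are not analysed here.

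Spleen CD4 T cells were enriched with magnetic beads and sorted by flow cytometry for CD4 and high CD25. The donors were mice 6 to 8 weeks old, either wild-type littermates or miR-125a-deficient animals, and neither group received a treatment that the labels mention. Equal amounts of RNA from different mice of a genotype were pooled, and 1 pool per genotype was read on 1 Affymetrix whole-genome mouse array. How the deficient allele was made, whether it acts in all cells and how many mice were pooled are not given in the sources used here. With 1 pooled sample a genotype there was no replicate and no test, so the values below compare 2 RNA pools, and no p-value is given.

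Glycolysis turns glucose into pyruvate in the cytosol and is used heavily by activated T cells, which export much of the product as lactate. The pentose phosphate pathway branches from its first intermediate and yields NADPH and ribose for nucleotides. The citrate cycle burns pyruvate-derived acetyl groups in mitochondria, and Treg cells are known to rely on mitochondrial oxidation more than conventional effector T cells do.

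The microRNA that the deficient mice lack is shown with the others whose printed seeds it shares, since a seed, bases 2 to 8, largely sets which transcripts a microRNA binds. The sequences are from RefSeq (GRCm38.p6), and the seed is in capitals. The seed of miR-125a-5p, encoded at chr17:17830817-17830840 on the plus strand, occurred at the same place in 5 of the names among 1738 mature entries, of which 3 are printed.
miR-125a-5p: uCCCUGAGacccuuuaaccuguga
miR-125b-5p: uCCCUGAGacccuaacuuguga
miR-351-5p: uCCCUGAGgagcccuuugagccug
The 3 printed microRNAs have identical seeds and differ in the bases after them. Levels of these microRNAs are not analysed here, and target sites in the members were not searched.

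The signal of a probe set is the MAS5 value on a linear scale, on which both arrays had been scaled to the same trimmed mean. A log2 ratio compares the deficient with the wild-type pool after 16.3 was added to both signals, so a positive value means higher without miR-125a. Genes with a mean signal under 62.5, the median over probe sets, were left out, and 10584 genes remained. All 39 measured members passed this minimum. Each gene was read from its brightest probe set, and the value after ± is the probe-set SD, the spread of the log2 ratio between probe sets of a gene at that signal. It ran from 0.37 for the dimmest to 0.18 for the brightest genes and leaves out variation between mice. Signals of different genes are not compared, because probe sets bind with different strength.

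No member differed by 2-fold or more between the pools, whereas 2.26% of all genes past the minimum did, 1.08% higher and 1.18% lower in the deficient pool. None differed by 1.5-fold either, against 10.8% of all genes. That count of 0 was 1 with equal medians or quantile normalization, 2 as the mean over probe sets and 3 with loess. It was 2 of 25 members with multi-transcript probe sets omitted, where Aldoc passed 2-fold at -1.35. Most members were bright, 37 of 39 lying at or above the 75th percentile of mean signal, and among the 6823 genes that bright the shares were 1.2% at 2-fold and 6.54% at 1.5-fold. The log2 ratio was above 0 for 30 of the 39 members, against 51% of all genes and 52.4% of the brighter ones. That count depended on the scaling and the probe set. It was 25 of 39 with quantile normalization, against 54% of all genes, and 25 with loess, against 53.7%. Of the 91 member probe sets past the minimum, 60 lay above 0. The share over all probe sets was not computed, so that count has no background beside it. The median was 0.04 for 18 glycolysis members, 0.24 for 4 pentose phosphate members and 0.16 for 17 citrate cycle members, beside 0.0073 for all genes. Just inside the 1.5-fold limit lay Idh2 at 0.57 and Idh3a at 0.52 on the higher side, and Mdh1 at -0.55, Aldoc at -0.53 and Pdk1 at -0.52 on the lower side. These 5 were the members beyond 2 probe-set SDs, a limit that 12.4% of all genes and 12.6% of the brighter ones passed, so their share among 39 members was near the background.

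**Figure D1:**
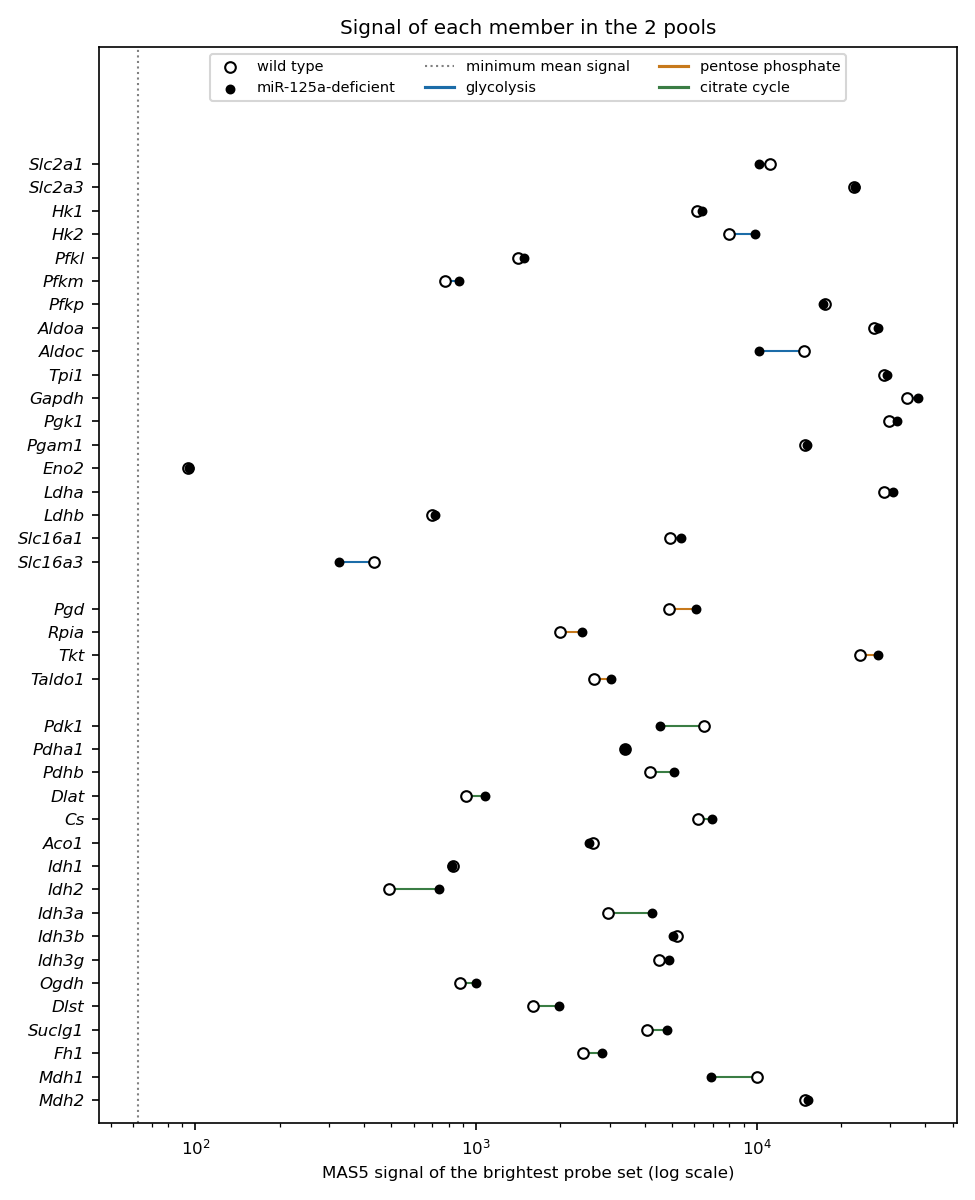
MAS5 signal (log axis) of the brightest probe set of each of the 39 measured members in the wild-type pool (open circles) and the miR-125a-deficient pool (filled circles), joined by a line coloured by pathway, 1 array each. The lines are short for most genes and longest for Idh2, Mdh1, Aldoc, Idh3a and Pdk1, and the dotted line marks the minimum mean signal of 62.5.

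The glucose transporter genes were level or lower in the deficient pool, depending on the probe set. Slc2a1, the transporter GLUT1 induced on T cell activation, had a signal of 11148 in wild-type and 10171 in the deficient pool, a log2 ratio of -0.13 ± 0.18. Slc2a3, the high-affinity transporter GLUT3, had 22257 and 22390, a ratio of 0.01 ± 0.18. Its 3 other probe sets were lower in the deficient pool, at 14295 against 16966, 264 against 469 and 151 against 252, with ratios from -0.79 to -0.25. The brightest probe set of Slc2a3 therefore did not speak for the others, and the mean over all 4 was -0.43.

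The lactate transporters had ratios of opposite sign. Slc16a1, which encodes MCT1, was at 4917 in wild-type and 5383 in the deficient pool, with a ratio of 0.13 ± 0.19. Slc16a3, which encodes MCT4, the lactate exporter of highly glycolytic cells, was at 435 and 325, with a ratio of -0.40 ± 0.31. The opposite signs were not tested, and the MCT4 difference was 1.32 times the probe-set SD.

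The first committed steps were slightly higher or level. Hk2, the inducible hexokinase that traps glucose in activated cells, had the highest ratio of the glycolysis members, at 9840 in the deficient against 7947 in the wild-type pool, a ratio of 0.31 ± 0.18 from its 1 probe set. Hk1, the constitutive hexokinase, was at 6395 against 6122, with a ratio of 0.06 ± 0.18 and its other probe set at -0.07. The 3 phosphofructokinase genes, whose enzyme is the main control point of glycolysis, had ratios of 0.07 ± 0.24 for Pfkl, the liver type, at 1479 against 1407, and 0.16 ± 0.26 for Pfkm, the muscle type, at 868 against 775. Pfkp, the platelet type, had -0.02 ± 0.18 at 17303 against 17581, with its other probe sets at -0.17 and 0.27. No phosphofructokinase gene lay beyond 1 probe-set SD from 0.

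Aldoc was the exception among the enzymes of this pathway. It encodes aldolase C, an isozyme of the enzyme that splits fructose 1,6-bisphosphate and is best known from brain. Its signal was 14743 in wild-type and 10174 in the deficient pool, a ratio of -0.53 ± 0.18. Its other probe set was lower still in the deficient pool, at 291 against 769, a ratio of -1.35 and 1 of the 2 among 91 member probe sets past the minimum that reached 2-fold. Aldoa, the main aldolase of most tissues, had no such difference, at 27060 against 26219 with a ratio of 0.05 ± 0.18 and its 4 other probe sets between -0.21 and 0.09. Tpi1, which interconverts the products of aldolase, was at 29080 against 28512, with a ratio of 0.03 ± 0.18.

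The lower part of the pathway, from Gapdh to lactate dehydrogenase, had small ratios by its brightest probe sets. By these, all 6 measured members had ratios above 0, against 51% of all genes. The ratios ran from 0.01 to 0.14, and none reached 1 probe-set SD. Gapdh, which oxidises glyceraldehyde 3-phosphate, was read only by the array's 3 control probe sets for it, at 37622 against 34255 for the brightest, with ratios from 0.12 to 0.14. The 3' to 5' signal ratio of these controls, a measure of RNA integrity, was 0.800 in wild-type and 0.790 in the deficient pool. For the array's controls for Pcx, pyruvate carboxylase, it was 8.26 and 6.06, so the controls differed in this measure. The part of RNA integrity in the members' ratios was not tested. Pgk1, the first enzyme here to make ATP, was at 31578 against 29546 with a ratio of 0.10 ± 0.18, and Pgam1, a mutase, at 15131 against 14925 with 0.02 ± 0.18. Eno2, the neuronal enolase, was the dimmest member, at 95.1 against 94.1. Ldha, which makes lactate, was at 30592 against 28439, a ratio of 0.11 ± 0.18. Ldhb, which favours the return of lactate to pyruvate, was at 714 against 698, a ratio of 0.03 ± 0.26, with its 3 other probe sets at 0.10 to 0.54. Small ratios across glycolysis depended on scaling in their sign. As reported, 14 of 18 glycolysis members lay above 0, against 51% of all genes. After quantile normalization 10 of 18 did, against 54% of all genes, and after loess 10 of 18, against 53.7%. Slc2a3, Aldoa, Tpi1 and Pgam1 lay below 0 in both.

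Of the 10 members in the brightest 1% of probe sets, 8 were glycolysis genes (Gapdh, Pgk1, Ldha, Tpi1, Aldoa, Slc2a3, Pfkp and Pgam1), and their ratios ran from -0.02 to 0.14. The highest signal on either array was 47226. Whether these probe sets approached saturation, which shrinks ratios, was not tested.

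**Figure D2:**
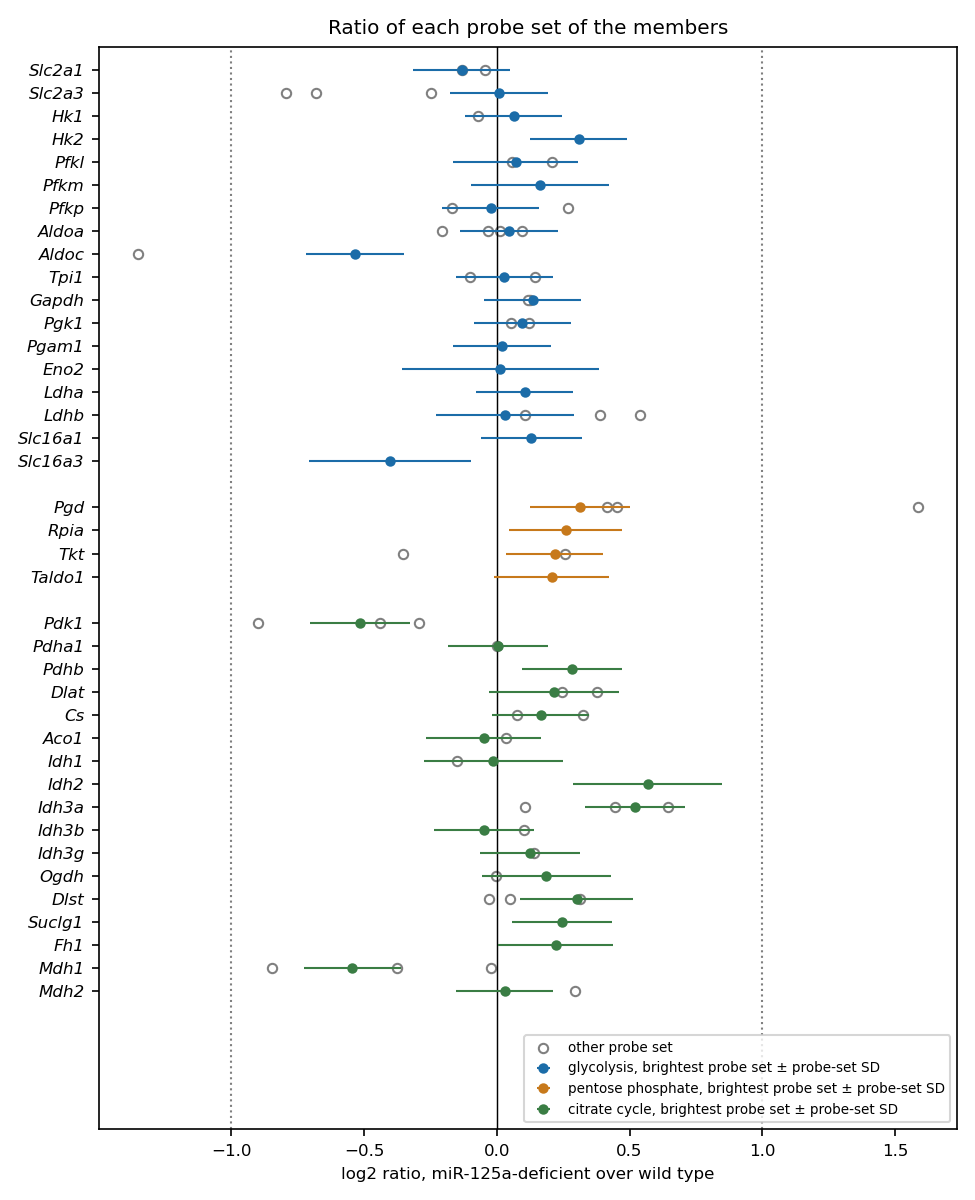
Log2 ratio of the miR-125a-deficient over the wild-type pool for every probe set of the members past the signal minimum, 1 array per pool. Filled circles are the brightest probe sets with bars of ± 1 probe-set SD, open circles the others, and dotted lines mark 2-fold; Aldoc at -1.35 and Pgd at 1.59 have the 2 probe sets beyond them, both open circles.

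All 4 measured pentose phosphate genes were higher in the deficient pool by their brightest probe sets, against 51% of all genes above 0. Their ratios lay in a narrow range from 0.21 to 0.31. As the mean over probe sets the range was wider, from 0.04 for Tkt to 0.69 for Pgd. Pgd, 6-phosphogluconate dehydrogenase, which yields NADPH and ribulose 5-phosphate, was at 6091 against 4896 in the wild-type pool, a ratio of 0.31 ± 0.19. Its 3 other probe sets were also higher in the deficient pool, at 5760 against 4312, 2719 against 1983 and 5134 against 1699, the last with a ratio of 1.59. That probe set carries the suffix of those that can match several transcripts, as do the other 3 of Pgd, and the mean over the 4 was 0.69. Pgd was thus higher in each of its probe sets, with ratios from 0.31 to 1.59.

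Rpia, which turns ribulose 5-phosphate into the ribose 5-phosphate of nucleotides, was at 2385 in the deficient and 1990 in the wild-type pool, a ratio of 0.26 ± 0.21. Tkt, transketolase, which links the pathway back to glycolysis, was at 27103 against 23314, a ratio of 0.22 ± 0.18, with its other bright probe set at 0.26 and a dim one at -0.36, at 69.0 against 92.8. Taldo1, transaldolase, of the same non-oxidative branch, was at 3032 against 2627, a ratio of 0.21 ± 0.22. No single one of the 4 lay beyond 2 probe-set SDs. The 4 stayed above 0 under all 9 other processing settings in which each could be computed, Pgd and Taldo1 in 8 of them and Rpia and Tkt in 9, and their median then ran from 0.22 to 0.28. With multi-transcript probe sets omitted, that median was 0.26 and rested on 2 genes.

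The kinase at the entry into the citrate cycle was lower in the deficient pool. Pdk1, the kinase that switches off pyruvate dehydrogenase and so diverts pyruvate to lactate, was at 6475 in wild-type and 4522 in the deficient pool, a ratio of -0.52 ± 0.19. All 3 other probe sets of Pdk1 were also lower in the deficient pool, at 3534 against 4795, 1067 against 1312 and 119 against 237, with ratios from -0.90 to -0.29. Under the 9 other settings its ratio ran from -0.58 to -0.44. Pdk1 was the member beyond 2 probe-set SDs whose value moved by less than 1 probe-set SD under every one of these settings and whose 4 probe sets all lay at or beyond -0.29.

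The pyruvate dehydrogenase complex turns pyruvate into acetyl-CoA. Its subunit genes were level or slightly higher. Pdhb, the beta subunit of its first enzyme, was at 5065 in the deficient against 4157 in the wild-type pool, a ratio of 0.28 ± 0.19. Dlat, its acetyltransferase core, was at 1074 against 923, a ratio of 0.22 ± 0.24 with its other probe sets at 0.25 and 0.38. Pdha1, the alpha subunit that the kinase phosphorylates, was at 3404 against 3393, a ratio of 0.00 ± 0.19.

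Mitochondrial enzymes of the cycle lay above 0 in 9 of 10 cases, against 51% of all genes, with a median of 0.20. Mdh2 lay below 0 after quantile normalization, at -0.02, and loess, at -0.03, and Idh3b was at -0.08 in both. Of all 40 citrate cycle probe sets past the minimum, 25 lay above 0, with a median of 0.09, and the share over all probe sets was not computed. Among the 10 enzymes Idh2, the NADP-dependent isocitrate dehydrogenase of mitochondria, had the highest ratio. It was at 736 in the deficient and 492 in the wild-type pool, 0.57 ± 0.28. Its other probe set, below the minimum, was at 55.0 against 50.9. Idh3a, the catalytic subunit of the NAD-dependent enzyme that drives the cycle, followed at 4256 against 2961, a ratio of 0.52 ± 0.19. Its 3 other probe sets, all dimmer, had ratios of 0.44, 0.65 and 0.10, so all pointed upward but differed in size.

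The regulatory subunits of the same NAD-dependent enzyme had ratios nearer 0. Idh3b was at 5028 in the deficient against 5200 in the wild-type pool, a ratio of -0.05 ± 0.19 with its other probe set at 0.10. Idh3g was at 4894 against 4488, a ratio of 0.12 ± 0.19 with its other at 0.14. The Idh3a probe set at 0.10, the one whose suffix marks no other transcript, lay at the level of these subunits. It was dim, at 135 in the deficient against 125 in the wild-type pool, with a probe-set SD of 0.37. The gap between the subunits was not tested.

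The remaining mitochondrial members had ratios from 0.03 to 0.30. Cs, citrate synthase, which opens the cycle, was at 6956 against 6203, a ratio of 0.16 ± 0.18, with its other probe sets at 0.07 and 0.33. Ogdh and Dlst, subunits of the 2-oxoglutarate dehydrogenase complex, had 0.19 ± 0.24 at 1002 against 879 and 0.30 ± 0.21 at 1978 against 1603. Suclg1, a subunit of succinyl-CoA ligase, had 0.25 ± 0.19 at 4816 against 4058. Fh1, fumarase, had 0.22 ± 0.22 at 2810 against 2406, and Mdh2, mitochondrial malate dehydrogenase, 0.03 ± 0.18 at 15245 against 14943, with its other probe set at 0.30. The dimmer probe sets of Ogdh and Dlst lay between -0.03 and 0.31. Each of these 6 was higher in the deficient pool by its brightest probe set, against 51% of all genes above 0. None passed 2 probe-set SDs.

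Of the 3 cytosolic counterparts, Mdh1 was lower in the deficient pool by its brightest probe set and the others lay near 0. Mdh1, the cytosolic malate dehydrogenase of the malate-aspartate shuttle, was at 10031 in wild-type and 6870 in the deficient pool, a ratio of -0.55 ± 0.18, the lowest of all members. Its probe sets disagreed in size. A second one that can match several transcripts was at 5094 against 9168, a ratio of -0.85. Of those past the minimum that match Mdh1 alone by their suffix, the bright one was at 5732 against 5824, a ratio of -0.02. The dim one was at 158 against 210, a ratio of -0.38 ± 0.37. Mdh1 was thus level by the brightest probe set specific to it and lower by the dim one. Idh1, the cytosolic NADP-dependent isocitrate dehydrogenase, was at 823 against 831, a ratio of -0.01 ± 0.26, and Aco1, the cytosolic aconitase that doubles as an iron sensor, at 2531 against 2622, a ratio of -0.05 ± 0.22 with its other probe set at 0.03. Idh1 lay above 0 under 3 other settings.

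**Figure D3:**
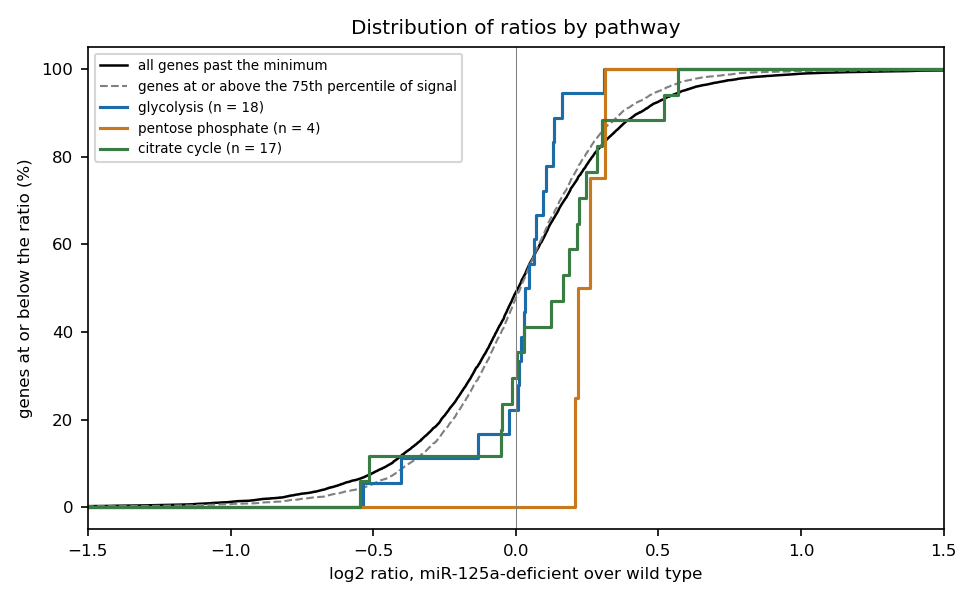
Share of genes (vertical axis, %) at or below each log2 ratio of the miR-125a-deficient over the wild-type pool, for all 10584 genes past the minimum, for the 6823 brighter ones and for the members of each pathway. The pentose phosphate members lie between 0.21 and 0.31, the glycolysis members cluster near their median of 0.04 and the citrate cycle members have a median of 0.16 with tails on both sides.

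Genes that belong to the same routes but not to the members were read from lists of neighbours. The minimum left 15 other glycolysis and gluconeogenesis genes, of which 2 were higher by 1.5-fold or more and 0 lower, beside 5.01% higher and 5.77% lower of all genes, and their median was 0.03. Slc2a6, a glucose transporter family member of lysosomes, was at 876 in the deficient against 506 in the wild-type pool, a ratio of 0.77. Tigar, a phosphatase that lowers glycolytic flux, was at 488 against 286, a ratio of 0.74, although its other probe sets had -0.49 and 0.39. The lowest was Pfkfb3, which makes the activator of phosphofructokinase, at 961 against 1267, a ratio of -0.39. Pkm, pyruvate kinase, the last ATP-yielding step, was level at 16314 against 15140, a ratio of 0.11.

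Among 6 other pentose phosphate genes, 1 was at least 1.5-fold higher and 0 lower, beside 5.01% higher and 5.77% lower of all genes. Of the 6, 5 lay above 0, against 51% of all genes, and the median was 0.10. That gene was Prps1, which makes phosphoribosyl pyrophosphate from ribose 5-phosphate for nucleotides, at 8049 in the deficient against 5301 in the wild-type pool, a ratio of 0.60. The lowest of them was Rbks, ribokinase, at -0.11.

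Of 20 other genes of the citrate cycle and its side reactions, 16 were above 0, against 51% of all genes, and the median was 0.11. Me1, the cytosolic malic enzyme, which makes pyruvate and NADPH from malate, was the 1 gene at least 2-fold higher, against 1.08% of all genes. Its signal was 237 in the deficient against 43.4 in the wild-type pool. Its ratio was 2.09, with its other probe set at 0.56, and the wild-type signal lay below the minimum. Pcx, pyruvate carboxylase, which refills the cycle with oxaloacetate, was at 875 against 1646, a ratio of -0.90, and its 4 other probe sets past the minimum, all from the array's controls, lay between -0.77 and -0.30. The 3' to 5' signal ratio of the Pcx controls was 8.26 in wild-type and 6.06 in the deficient pool, and its part in the difference was not tested. The genes of succinate dehydrogenase, the enzyme shared with the respiratory chain, had ratios of 0.17 for Sdha, 0.25 for Sdhb, -0.05 for Sdhc and 0.11 for Sdhd. Their other probe sets ranged from -0.24 for Sdha to 0.69 for Sdhc.

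Glutamine, aspartate and malate shuttle genes were above 0 in 6 of 8 cases, against 51% of all genes. Their median of 0.25 was 0.015 as the mean over probe sets. Gpt2, the mitochondrial alanine transaminase, was at 949 in the deficient against 490 in the wild-type pool, a ratio of 0.93, but its 3 other probe sets had both signs, the lowest at -0.27. The lowest was Glud1, glutamate dehydrogenase, at -0.13.

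**Figure D4:**
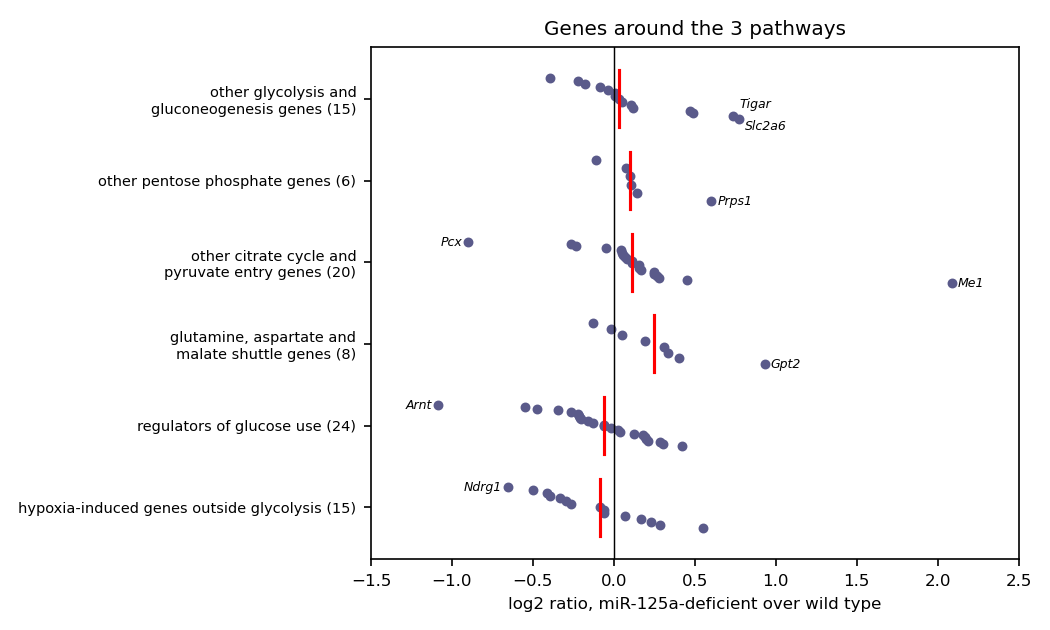
Log2 ratio of the miR-125a-deficient over the wild-type pool (horizontal axis) for genes around the pathways, 1 point a gene past the signal minimum, with the list median as a red line and the number of genes in brackets. Named points differ by at least 1.5-fold; the wild-type signal of Me1, at 2.09, lay below the signal minimum, and the median of its list is 0.11.

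Regulators of glucose use were spread around 0, with 10 of 24 above it, against 51% of all genes, and a median of -0.06. Of the 24, 1 differed by 2-fold, against 2.26% of all genes. Hif1a, the oxygen-sensitive factor that turns on glycolytic genes, was at 19510 in the deficient against 16839 in the wild-type pool, a ratio of 0.21, with its 3 other probe sets from -0.96 to -0.02. Arnt, its DNA-binding partner, was the 1 regulator beyond 2-fold, at 611 against 1314, a ratio of -1.08, but its 2 other probe sets had only -0.29 and -0.18. Myc, which also drives glycolytic genes, had -0.06, and Txnip, a restraint on glucose uptake, -0.48 with its other probe set at 0.19. The highest was Epas1, a relative of Hif1a, at 0.42.

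Genes induced by low oxygen outside glycolysis were above 0 in 5 of 15 cases, against 51% of all genes, and their median was -0.09. Of the 15, 1 differed by 1.5-fold, against 10.8% of all genes. Ndrg1, a stress-response gene, was the 1 beyond 1.5-fold, at 7827 in the deficient against 12307 in the wild-type pool, a ratio of -0.65, with its 4 other probe sets between -0.85 and -0.50. The highest was Car9, a carbonic anhydrase, at 0.55 from signals of 146 and 94.2. Aldoc, Pdk1 and Slc16a3, the lowest members beside Mdh1, are also known to be induced by low oxygen. So are Slc2a1, Slc2a3, Hk2, Pfkl, Pfkp, Aldoa, Tpi1, Gapdh, Pgk1, Pgam1 and Ldha, whose ratios lay between -0.13 and 0.31. That grouping of members was made after their values were seen.

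The letters ACGTG, a form of the core of the hypoxia response element, were therefore counted on either strand in promoters. The form of that core with G first, GCGTG, was not counted. Promoters were taken as 250 bases before to 50 after a start site in RefSeq (GRCm38.p6). A match is a description of the letters ACGTG only, and the E-box CACGTG contains them. Of the members, 40 had at least 1 promoter in the table. Slc2a3 and Idh3a are named only. The letters occurred in a promoter of 12 of 19 glycolysis genes, 1 of 5 pentose phosphate genes and 4 of 16 citrate cycle genes, against 19.7% of the 32544 promoters in the table, 21.9% of all 26742 genes with a promoter and 30.6% of those past the signal minimum. Glycolysis members with the letters had ratios from -0.53 to 0.31 with a median of 0.08 over 12 genes, and the 5 measured members without them from -0.02 to 0.07 with a median of 0.03. In the citrate cycle the 4 members with the letters ran from -0.55 to 0.28 and the 12 without them from -0.52 to 0.57. Over all members the medians were 0.10 with the letters and 0.07 without. The promoters of the glycolysis members with the highest and the 2 lowest ratios are printed with that of Idh2, the highest member of all, with each match in capitals. For Aldoc the first of its 2 promoters in the table is shown.
Hk2, chr6:82774405-82774704, minus strand: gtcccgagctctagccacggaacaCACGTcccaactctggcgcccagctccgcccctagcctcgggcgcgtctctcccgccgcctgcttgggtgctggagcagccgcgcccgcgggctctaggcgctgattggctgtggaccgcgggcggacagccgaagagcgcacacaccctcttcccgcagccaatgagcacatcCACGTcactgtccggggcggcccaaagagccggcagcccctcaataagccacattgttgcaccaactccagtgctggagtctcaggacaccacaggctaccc
Aldoc, chr11:78322823-78323122, plus strand: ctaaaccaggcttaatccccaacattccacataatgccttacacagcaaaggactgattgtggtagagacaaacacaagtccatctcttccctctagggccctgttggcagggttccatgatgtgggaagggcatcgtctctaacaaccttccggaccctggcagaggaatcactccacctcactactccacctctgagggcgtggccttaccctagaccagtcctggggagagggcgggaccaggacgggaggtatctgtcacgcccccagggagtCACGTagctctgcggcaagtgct
Slc16a3, chr11:120948817-120949116, plus strand: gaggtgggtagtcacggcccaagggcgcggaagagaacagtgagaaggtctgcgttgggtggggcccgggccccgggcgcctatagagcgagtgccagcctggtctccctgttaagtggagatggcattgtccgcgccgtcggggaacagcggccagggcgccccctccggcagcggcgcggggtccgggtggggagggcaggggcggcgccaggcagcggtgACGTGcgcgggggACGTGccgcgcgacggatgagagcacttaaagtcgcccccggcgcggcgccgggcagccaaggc
Idh2, chr7:80115301-80115600, minus strand: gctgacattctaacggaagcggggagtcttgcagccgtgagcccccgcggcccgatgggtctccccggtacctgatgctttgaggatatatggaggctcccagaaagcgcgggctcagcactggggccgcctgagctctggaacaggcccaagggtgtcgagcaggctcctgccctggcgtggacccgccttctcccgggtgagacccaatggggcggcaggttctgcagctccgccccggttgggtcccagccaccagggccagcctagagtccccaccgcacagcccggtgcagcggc
Hk2 at 0.31 and Slc16a3 at -0.40 each carry 2 matches to ACGTG and Aldoc at -0.53 carries 1. Idh2 at 0.57 and both promoters of Pdk1 at -0.52 carry no ACGTG. The uncounted form GCGTG does occur in the printed Idh2 and Aldoc promoters and in the first promoter of Pdk1. These promoters were chosen by the ratios of their genes, so their matches say nothing of a relation between letters and ratio.

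The labelled cell type was checked against its markers. All 8 Treg and CD4 T cell markers were past the minimum, and their summed signal was 54171 in wild-type and 56307 in the deficient pool. Of their ratios, 4 lay above 0 and 4 below. Foxp3, the defining factor of Treg cells, had the lowest, -1.21, at 694 in the deficient against 1631 in the wild-type pool. Cd3e at -0.41, Cd4 at -0.15 and Cd5 at -0.07 were the others below 0. Those above it were Ikzf2 at 0.45, Il2ra at 0.27, Ctla4 at 0.02 and Cd3g at 0.01. In such bulk samples fewer cells of a type and less RNA per cell cannot be told apart. Most markers of other blood cells were below the minimum, those of platelets excepted. The summed signal was 957 and 683 for CD8 T and NK cells (2 of 5 past the minimum), 338 and 323 for B cells (1 of 6), 721 and 483 for macrophages, monocytes and dendritic cells (4 of 8), 180 and 46.4 for neutrophils (0 of 5) and 75.8 and 87.2 for erythroid cells (1 of 5), wild type first. Platelet genes (5 of 5) summed to 2428 and 3049. A haemoglobin beta probe set that names 4 genes was at 393 and 1116, a log2 ratio of 1.47. Of the probe sets that name both Hba-a1 and Hba-a2, haemoglobin alpha genes, those at 210 and 481 and at 83.8 and 366 had ratios of 1.13 and 1.94, and the remaining one had signals of 5.14 and 7.17. Haemoglobin transcripts were thus higher in the deficient pool by these shared probe sets, which the erythroid sum leaves out. Itgam, Alas2 and the single-gene probe set of Hba-a1 had signals under 8 on both arrays, too dim for their ratios to be read. The part of these cells in the members' ratios was not tested.

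The order of the pathway medians, pentose phosphate above citrate cycle above glycolysis, was the same under all 9 other settings. Under the 3 other array scalings the median of all genes lay between 0.03 and 0.05, and the 18 hybridisation spike-in probe sets had ratios from -0.11 to 0.08. The pathways differ in size and in brightness, and no test of their order was made.

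**Figure D5:**
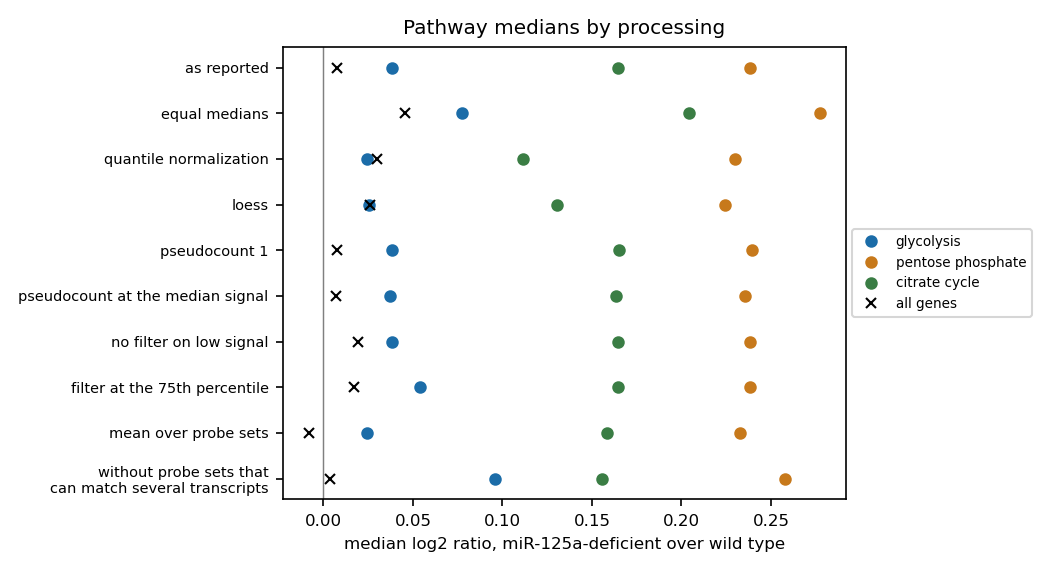
Median log2 ratio of the miR-125a-deficient over the wild-type pool (horizontal axis) of each pathway and of all genes past the minimum (crosses), for the reported processing and 9 alternatives (rows). The pentose phosphate median lies between 0.22 and 0.28, the citrate cycle median between 0.11 and 0.20 and the glycolysis median between 0.02 and 0.10.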

How the data were processed

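The authors deposited log2 values for 45101 probe sets on 2 arrays, 1 per genotype. The values come from MAS5, version not given, per the submitters' processing notes. It subtracts mismatch signal and scales each array, so dim values are noisy. On the linear scale both arrays had the same mean once the top and bottom 2% of signals were set aside. The lowest deposited log2 value was 0, held by 552 wild-type and 473 miR-125a-deficient probe sets. The median signals were 64.1 and 62.4. Genome build and detection calls are not given in the sources used here.

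Of the probe sets, 34958 named 1 gene, 932 several and 9211 none in the platform annotation, and those naming 1 gene were used, array controls for Gapdh and other genes included. The brightest probe set stood for a gene. The pseudocount of 16.3 was the 25th percentile of all signals. The probe-set SD was the SD of the difference between the 2 brightest probe sets, over 5032 genes in 10 signal groups, divided by the square root of 2. With 1 sample a genotype, precision is limited by the number of arrays. Fold limits were 1.5 and 2, and all members and, of each neighbour list, its extremes and genes past 1.5-fold were named, with Pkm, the succinate dehydrogenase genes, Hif1a, Myc and Txnip. Other neighbours or markers were picked with their values in view. The members and lists were chosen with earlier results of these data known. Alternatives were 3 scalings, pseudocounts of 1 and the median signal, 2 other filters, the mean over probe sets and omission of probe sets with several possible transcripts. The scripts (Python 3.11.15, pandas 2.3.3, statsmodels 0.14.6) were tested on simulated data.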

Additional observations from a re-analysis of the deposited data

How the results depend on the processing

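Across 9 alternatives the members gave 335 values, of which 328 moved by less than the probe-set SD, and 28 of 39 members kept their sign throughout. The other 11 had ratios between -0.05 and 0.06 as reported. Values that moved by more were those of Aldoc (-0.94), Pgd (0.69) and Slc2a3 (-0.43) as the mean over probe sets, and of Aldoc (-1.35), Slc2a3 (-0.79), Idh3a (0.10) and Mdh1 (-0.02) once probe sets with several possible transcripts were omitted. That last setting left 25 members, with 1 at 2-fold, 2 at 1.5-fold and 18 above 0. The number of members at 1.5-fold, 0 as reported, was 1 with equal medians and with quantile normalization (Idh2), 3 with loess (Idh2, Mdh1 and Aldoc) and 2 as the mean over probe sets (Aldoc and Pgd). For all genes, 239 were at 2-fold as reported, 115 with a pseudocount at the median signal, 1387 with no filter and 82 with the filter at the 75th percentile. At 1.5-fold there were 1141 and at 3-fold 50. Of the genes at 2-fold, 47.7% were higher as reported, against 57.6% with quantile normalization, 58.5% with loess and 58.3% with no filter. The hypoxia-induced list had a median of -0.26 with the filter at the 75th percentile and -0.17 with the multi-transcript probe sets omitted, and the glutamine, aspartate and malate shuttle list 0.015 as the mean over probe sets and 0.14 with that omission. These list alternatives, the limit of 2 probe-set SDs and the background of brighter genes were chosen after seeing the data. The cause of these shifts was not tested beyond the change of probe sets or genes that each setting makes. No paired analysis was possible because each genotype has 1 pooled sample. Signals near the minimum of 62.5 limit Eno2 and the dim probe sets.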

Other observations

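Some probe sets that name a member with other genes stayed out of the ratios above. One that names Gapdh and 4 related genes or pseudogenes had a signal of 27745 without miR-125a against 24980 with it, a log2 ratio of 0.15, near the 0.14 of the Gapdh control probe set. A dimmer one, which names Gapdh and 1 pseudogene, was at 696 against 998, a ratio of -0.51. A probe set that names Prps1 and a related gene was at 4824 against 3272, a ratio of 0.56, beside 0.60 for the Prps1 probe set. The 3 probe sets that name Bnip3l, a mitophagy receptor induced by low oxygen, with its pseudogene were lower in the deficient pool, with ratios from -0.39 to -0.19.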
